A study of Mus musculus with 31 samples.

Results

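The 10 genes described here are used as markers of where a fat depot comes from and of what kind of adipocyte it holds. They are the brown fat markers Zic1 and Lhx8, the brown and beige regulator Ebf2, the beige markers Tbx1, Tmem26 and Cited1, the subcutaneous marker Tbx15, and the positional genes Hoxc8, Hoxc9 and Hoxc10. A gene was taken as the row of the deposited count tables whose RefSeq transcript accession belongs to that symbol, and as the row with the highest total count if there were several. All 10 genes had a single row, of 17334 accessions in all. The mice were C57BL/6J males, 8 weeks of age, and 3 of their depots were sampled. These are the interscapular brown depot (iBAT), the inguinal, subcutaneous white depot (iWAT) and the epididymal, visceral white depot (eWAT). Every mouse was first held at thermoneutrality for 8 days. Day 0 mice were killed then, and the others spent 2 or 4 days at 4 °C. The labels name no engineered allele, and groups differ in depot and in days in the cold. There were 3, 4 and 3 iBAT libraries on days 0, 2 and 4, then 4, 3 and 5 iWAT libraries and 3, 3 and 3 eWAT libraries, 31 in all. A library is named by its depot and label number, as in iBAT518. The labels do not state that each library is a separate mouse, and label numbers recur across depots. The p-values thus measure the spread between these libraries, and depots were compared without pairing by number.

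Fat depots keep a record of their position in the body. HOX genes are switched on in the embryo in overlapping domains along the head-to-tail axis, and adult fat retains part of that pattern, as do other developmental transcription factors such as Zic1 and Tbx15. Brown adipocytes burn fuel through Ucp1, the uncoupling protein of their mitochondria. Beige adipocytes are Ucp1-expressing cells that appear within white fat in the cold, and Tbx1, Tmem26 and Cited1 were proposed as genes that set them apart from classical brown adipocytes.

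Zic1 and Lhx8 were the members with counts in iBAT and none in any eWAT library, so the 250 bases before their RefSeq transcription starts are shown, 5′ to 3′ on the gene's strand, from RefSeq on GRCm38.p6. Zic1 lies at chr9:91365769-91366018 and Lhx8 at chr3:154330561-154330810, both on the minus strand. Capitals mark the dinucleotide CG.
Zic1: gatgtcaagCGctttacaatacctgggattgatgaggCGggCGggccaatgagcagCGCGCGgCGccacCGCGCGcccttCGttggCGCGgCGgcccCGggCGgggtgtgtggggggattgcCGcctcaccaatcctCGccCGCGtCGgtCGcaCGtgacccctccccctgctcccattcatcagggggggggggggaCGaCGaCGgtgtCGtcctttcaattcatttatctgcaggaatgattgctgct
Lhx8: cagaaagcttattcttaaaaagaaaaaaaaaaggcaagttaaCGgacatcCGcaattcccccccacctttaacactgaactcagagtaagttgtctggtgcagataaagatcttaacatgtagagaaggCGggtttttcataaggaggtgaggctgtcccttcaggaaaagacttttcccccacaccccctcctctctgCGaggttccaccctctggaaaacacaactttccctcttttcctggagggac
The Zic1 window held 27 CG dinucleotides, more than 91.4% of the 32851 RefSeq windows of this length, and the Lhx8 window held 4, more than 37.8% of them, against a median of 6. RefSeq windows were matched for 5 of the 10 members, Zic1, Lhx8, Tbx1, Tmem26 and Cited1, with 8 windows between them. Ebf2, Tbx15, Hoxc8, Hoxc9 and Hoxc10 had no entry. Both strands of the 8 windows were searched for the EBF palindrome, TCCC and GGGA with any 2 bases between them, and the T-box core AGGTGTGA, motifs that do not overlap each other in sequence. Neither was present in any of the 8, and they occur in 0.779% and 1.12% of all windows.

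Library totals ran from 1502823 counts in iWAT553 to 5527239 in iWAT555. Levels are given in counts-per-million units (CPM) on library sizes scaled by the trimmed mean of M-values (TMM). In iBAT539 and iBAT548 only 159 and 57 features were counted exactly 1 time, where the other 29 libraries had 863 to 1361 such features, so a missing value in this pair is not shown to be 0, and bounds against iBAT leave the pair out. The first axis of each depot's own variation took 50.2%, 39.6% and 40.3% of the within-group variance in iBAT, iWAT and eWAT. Each library was also given a score, its position on the first axis of within-group variation in the other depots. The shares of variance do not measure that axis. There were 12 libraries with a score above 0.5. The adipocyte markers were present throughout, with sums of 8860 to 57500 CPM, although the rows of Pparg and Pnpla2 held 1 and 3 counts over all 31 libraries. A row can thus miss most reads of a gene, and a row at 0 does not show that a gene is silent. Fewer cells of a type and less RNA per cell cannot be told apart in tissue libraries.

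**Figure D1:**
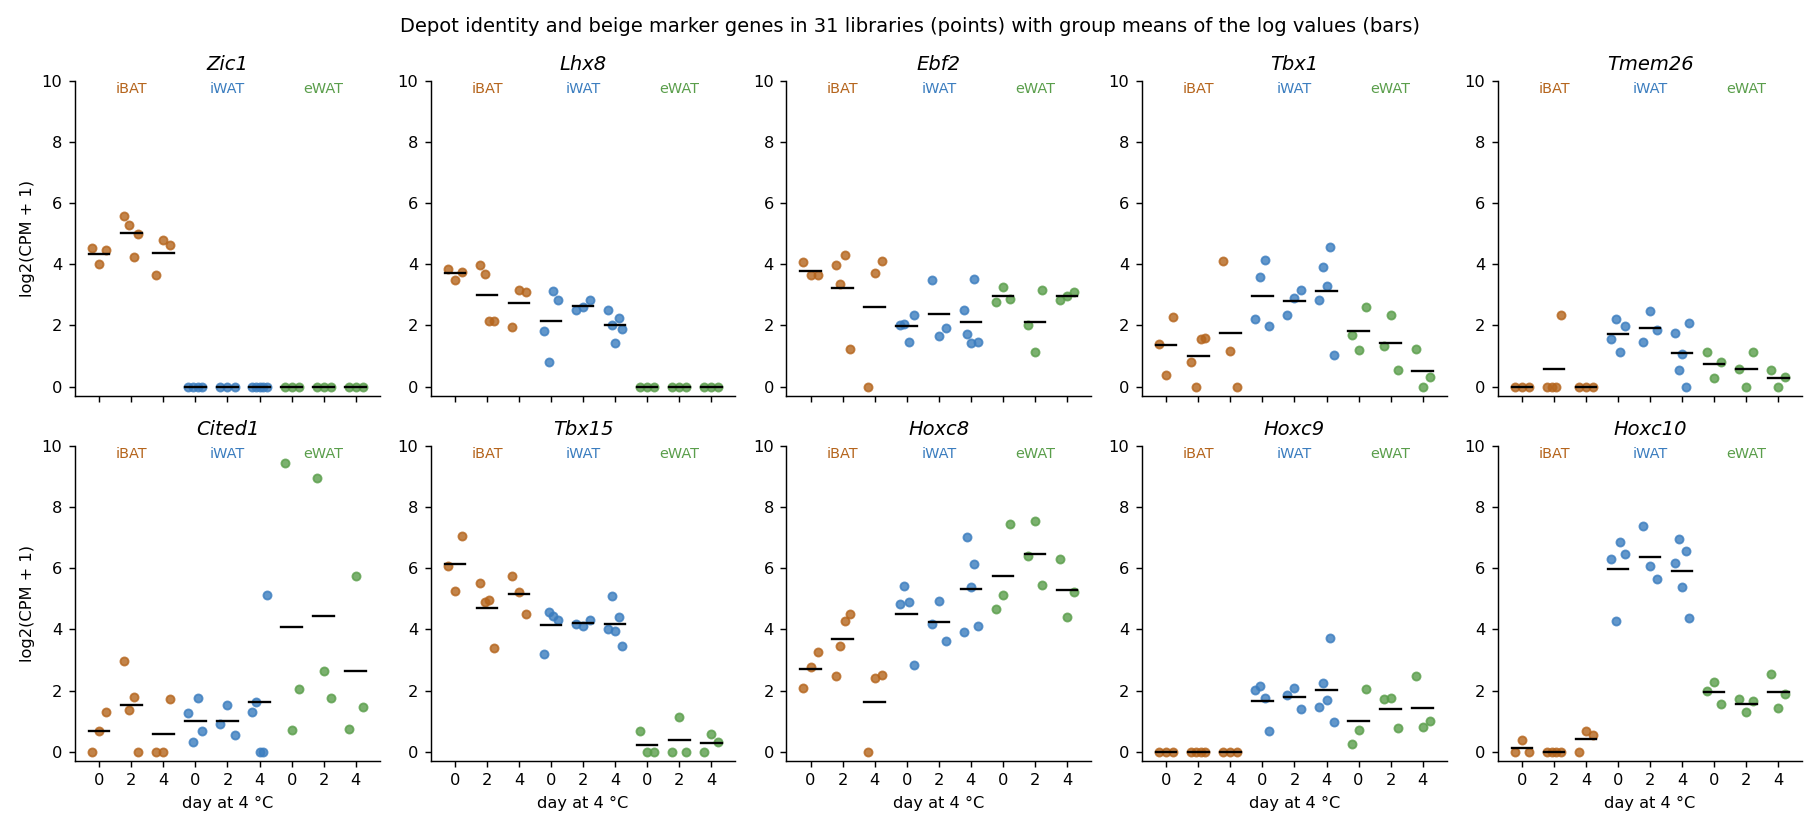
Each panel plots 1 gene, with log2(CPM + 1) on the vertical axis against day at 4 °C in iBAT, iWAT and eWAT. Points are libraries and bars are means of the log values. Zic1 lies above 0 in the 10 iBAT libraries and at 0 in the other 21, and Hoxc10 is high in the 12 iWAT libraries.

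Among the brown fat markers, Zic1, a zinc finger factor of dorsal mesoderm and neural tissue, was counted in iBAT and nowhere else. Its CPM on day 0 was 22 in iBAT516, 15.1 in iBAT517 and 21.4 in iBAT518. On day 2 it was 46.7, 37.9, 18.0 and 30.6 in iBAT532, iBAT534, iBAT535 and iBAT539, and on day 4 it was 11.7, 26.9 and 23.8 in iBAT548, iBAT550 and iBAT555. All 10 iBAT libraries held 37 to 73 counts, whereas all 12 iWAT and all 9 eWAT libraries had none. Against the limit of 3 counts over a group, Zic1 on day 0 was at least 81.9-fold higher in iBAT than in iWAT and at least 88.6-fold higher than in eWAT. In edgeR's quasi-likelihood test with Benjamini-Hochberg adjustment the adjusted p was 3.16e-05 and 9.4e-05. The bounds were 121 and 124 on day 2, and 116 and 79.5 on day 4. Zic1 passed the filter on low counts through iBAT alone, and a gene that passes in that way had to differ between depots. Exons of Zic1 share 60 bases with Zic4 on the other strand, and strand use is not given in the sources used here.

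Lhx8, a LIM homeobox factor enriched in brown fat, was present in both iBAT and iWAT. In iBAT it was 13.5, 10.3 and 12.5 CPM on day 0, then 14.6, 11.9, 3.40 and 3.40 on day 2, and 2.85, 7.96 and 7.47 on day 4, in the library order given for Zic1. In iWAT516, iWAT517, iWAT518 and iWAT522 of day 0 Lhx8 was 2.53, 0.731, 7.71 and 6.20 CPM. The 8 cold iWAT libraries lay between 1.66 and 6.10 CPM, and the 9 eWAT libraries had no count. On day 0 every iBAT library was above every iWAT library, but the difference of 1.52 ± 0.67 (SE) on the log2 scale had an adjusted p of 0.12 in edgeR. limma voom gave 1.97 with an adjusted p of 0.0133. Against eWAT on day 0, Lhx8 was at least 54.9-fold higher in iBAT (edgeR adjusted p = 6.06e-05) and at least 16.6-fold higher in iWAT (0.000429). The bounds were 30.9 and 20.7 on day 2 and 22.9 and 13 on day 4, all past the test. The 3 iBAT libraries with a score above 0.5 were also the 3 lowest for Lhx8. They held 2.85 to 3.40 CPM, against 7.47 to 14.6 in the other 7. They are iBAT535 and the pair with low counts missing, iBAT539 and iBAT548, and none of them is a day 0 library.

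Ebf2, a helix-loop-helix factor that marks brown and beige precursors, was counted in all 3 depots. Ebf2 on day 0 was 15.9, 11.5 and 11.6 CPM in iBAT, 3.09, 3.17, 1.78 and 4.13 in iWAT and 5.80, 8.52 and 6.36 in eWAT. The 3 ranges did not overlap, with iBAT highest and iWAT lowest, yet no pair of depots passed the test. The iBAT to iWAT difference was 2.05 ± 0.87 (SE) on the log2 scale, with an edgeR adjusted p of 0.103. With only the compared groups in the fit the adjusted p was 0.00942. Without iBAT539 and iBAT548, in which Ebf2 was 1.36 CPM and missing, the same day 0 difference of 2.06 had an adjusted p of 0.0168, and that on day 4 was 1.96 with 0.041. In the cold, Ebf2 was 9.35 to 18.9 CPM in the other 5 iBAT libraries, 1.66 to 10.6 in iWAT and 1.18 to 8.00 in eWAT. Ebf2 shares 424 exonic bases with the antisense gene Gm10860.

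The beige markers differed from one another in depot pattern. Tbx1, a T-box factor, was most often highest in iWAT. Its day 0 level was 3.66, 11, 16.6 and 2.95 CPM in iWAT, 1.63, 0.303 and 3.86 in iBAT and 2.20, 1.28 and 5.14 in eWAT, and the 3 ranges overlapped. On day 4 it was 6.19, 14.2, 8.87, 22.7 and 1.07 CPM in iWAT548, iWAT550, iWAT551, iWAT553 and iWAT555, against 1.37, 0 and 0.247 in eWAT548, eWAT551 and eWAT553. The iWAT to eWAT difference on day 4 was 4.15 ± 1.28 (SE) on the log2 scale (edgeR adjusted p = 0.0361), although iWAT555 lay below eWAT548. It lost the call when iWAT550, iWAT551, iWAT553, eWAT551 or eWAT553 was left out, with an adjusted p of up to 0.184, and without the 4 libraries high in epididymis markers described under Cited1 (0.112). In iBAT, the single library iBAT548 held 16.1 CPM and the other 9 held 0 to 3.86. Tbx1 was higher in iWAT libraries with a score above 0.5, at 3.66 to 22.7 CPM with a median of 12.6, than in the other 6, at 1.07 to 7.98 with a median of 5.13. With the score in the edgeR fit, Tbx1 also passed on day 2. The log2 difference was -4.09 for iBAT minus iWAT (adjusted p = 0.0051) and 3.53 for iWAT minus eWAT (0.0176). A score above 0.5 was held by 3 of 4 day 0 iWAT libraries and by 0 of 3 day 2 iWAT libraries. Score and day are thus partly confounded in that fit.

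Tmem26, a transmembrane protein used to sort beige precursors, was low everywhere. Day 0 levels were 1.97, 3.65, 1.19 and 2.95 CPM in iWAT and 1.20, 0.213 and 0.734 in eWAT, and it had no count in iBAT. It was thus at least 8.12-fold higher in iWAT than in iBAT on day 0 (edgeR adjusted p = 0.021). As with Zic1, it passed the filter through a single depot, here iWAT, where it was high. The call was lost when any 1 of the 3 day 0 iBAT libraries was left out, with an adjusted p of up to 0.081. In the cold iWAT libraries it was 0 to 4.61 CPM. Of the 10 iBAT libraries, iBAT539 alone held counts, 6 of them or 4.08 CPM, and it is 1 of the pair with low counts missing.

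Cited1, a transcriptional coactivator, was high in a few libraries rather than in a depot. It reached 695 CPM in eWAT516, 495 in eWAT532, 52.6 in eWAT551 and 33.9 in iWAT555. The other 6 eWAT libraries held 0.639 to 5.29 CPM, the other 11 iWAT libraries 0 to 2.37, and the 10 iBAT libraries 0 to 6.90. The day 0 difference for iBAT minus eWAT was -8.22 ± 2.51 (SE) on the log2 scale (edgeR adjusted p = 0.0337), and that for iWAT minus eWAT was -7.78 ± 2.15 (0.0238). Cited1 passed the filter on low counts through eWAT alone, the depot where it was high. The same 4 libraries had the highest sums of 12 epididymis and testis markers, 15000 CPM in eWAT516, 27800 in eWAT532, 18000 in eWAT551 and 4250 in iWAT555, against 0 to 1590 in the other 27. Of the 12 markers, 11, 11, 12 and 11 were counted in these 4 libraries. The number counted did not set them apart, as it was 10 or 11 in the other 6 eWAT libraries and 11 in iWAT516. Of the 10 iBAT libraries, 5 had none. Akr1b7, an abundant gene of the male reproductive tract, was at 12400, 26000 and 1980 CPM in eWAT516, eWAT532 and iWAT555. In eWAT551 it was 3.66 CPM, below 925 in eWAT538. Defb20, an epididymal defensin, was at 10800 CPM in eWAT551. It was 5.2, 2.77 and 4.29 CPM in eWAT516, eWAT532 and iWAT555, below 25.6 in eWAT517. The 4 libraries thus had high sums through different markers. Leaving out these 4 libraries was chosen after the data were seen, and they are those with the most Cited1. It had to shrink the differences given next, and is no test of a link with the markers. Without the 4 libraries the day 0 differences from eWAT were -1.30 (edgeR adjusted p = 0.692) for iBAT and -0.76 (0.842) for iWAT. No call on Cited1 was left on day 2 either, at -0.43 (0.869) and -1.75 (0.47). Single libraries ended these calls as well. For iBAT minus eWAT they were eWAT516 or any of the 3 iBAT libraries on day 0 (up to 0.816), and eWAT532 or any of the 4 iBAT libraries on day 2 (up to 0.901). For iWAT minus eWAT they were eWAT516, iWAT516, iWAT517 or iWAT518 on day 0 (up to 0.901), and eWAT532, eWAT538 or any of the 3 iWAT libraries on day 2 (up to 0.678).

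**Figure D2:**
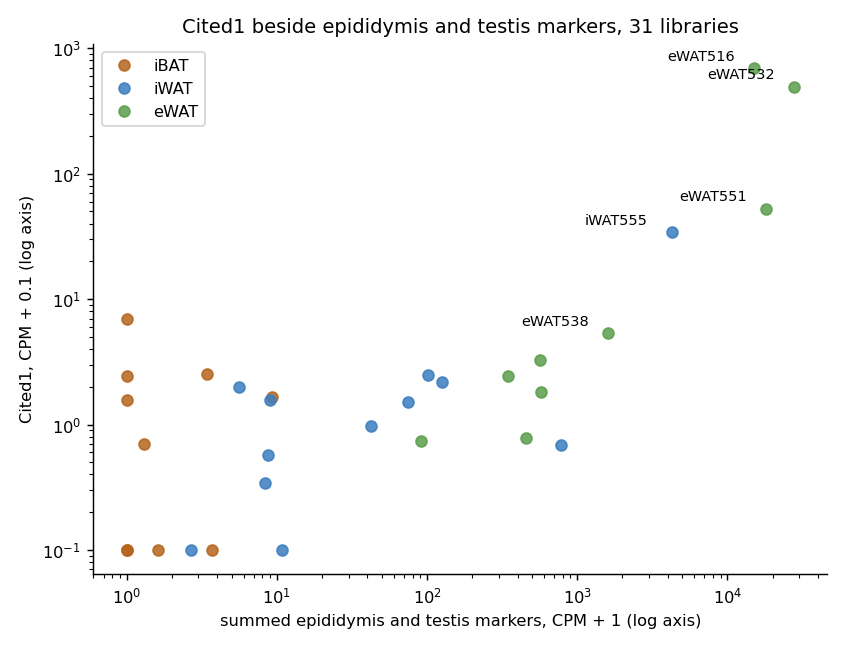
Cited1 (CPM + 0.1) is plotted against the summed epididymis and testis markers (CPM + 1) in 31 libraries, with both axes on a log scale. The 4 libraries with a marker sum above 4000 CPM are the 4 with the most Cited1, at 33.9 to 695 CPM.

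Tbx15, a T-box factor of subcutaneous fat, muscle and dermis, was strong in iBAT and iWAT and close to absent from eWAT. Tbx15 on day 0 was 66.5, 37.3 and 131 CPM in iBAT516, iBAT517 and iBAT518, 8.16, 22.9, 20.8 and 18.9 in iWAT, and 0.600, 0 and 0 in eWAT. All iBAT libraries were above all iWAT libraries that day. The iBAT to iWAT difference was 2.14 ± 0.65 (SE) on the log2 scale (edgeR adjusted p = 0.0212). It ended without iBAT518 or without iWAT516, with an adjusted p of up to 0.173, and it was not past the test on day 2 (0.71 ± 0.66, adjusted p = 0.52) or day 4 (1.00 ± 0.61, adjusted p = 0.252). Skeletal muscle markers ranked as Tbx15 did in the 3 day 0 iBAT libraries. Their sum was 67500 CPM in iBAT518, 24900 in iBAT516 and 22100 in iBAT517, with 16 or 17 of the 17 listed genes counted. In the 7 cold iBAT libraries it was 5740 to 26900 CPM, and the ranks agreed in part. There iBAT548 was highest for both, at 26900 and 53.2 CPM of Tbx15. The lowest sum, 5740 in iBAT555, came with 21.9 CPM of Tbx15, and 11900 in iBAT539 with 9.52. The iWAT and eWAT libraries held 26.3 to 3260 and 30.0 to 1130 CPM. The part of muscle in the Tbx15 level, or in the levels of other members high in iBAT such as Zic1, was not tested. Against eWAT, with 3 counts in the day 0 group, Tbx15 was 365-fold higher in iBAT (95% counting interval 125 to 1780) and 80.1-fold higher in iWAT (27.0 to 391), both past the edgeR test (4.89e-06 and 0.00012). The depot order iBAT and iWAT above eWAT held on each of the 3 days and under every alternative run for those 6 comparisons, including the removal of any library of the compared groups.

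The 3 HoxC genes lie next to one another on chromosome 15 (mm10), Hoxc10 from 102966796 to 102971898, Hoxc9 from 102977032 to 102984444 and Hoxc8 from 102990539 to 102994275, and they encode homeodomain factors of the trunk and hindlimb level. Hoxc10 marked iWAT. Hoxc10 on day 0 was 77.9, 18.5, 116 and 87.7 CPM in iWAT516, iWAT517, iWAT518 and iWAT522, on day 2 166, 66.1 and 49.7 in iWAT532, iWAT538 and iWAT539, and on day 4 71.6, 124, 40.5, 93.8 and 19.9 in iWAT548, iWAT550, iWAT551, iWAT553 and iWAT555. The 9 eWAT libraries held 1.47 to 4.81 CPM, and the 10 iBAT libraries 3 counts in all. No iWAT library overlapped either depot. The iWAT to eWAT difference was 4.65 on day 0 (edgeR adjusted p = 0.000211), 5.56 on day 2 (6.68e-05) and 4.48 on day 4 (0.000279) on the log2 scale, and each kept its call in every alternative run. Against iBAT, with 1 count in that group, Hoxc10 in iWAT was 606-fold higher on day 0 (95% counting interval 108 to 23900; edgeR adjusted p = 3.24e-06). It was also higher in eWAT than in iBAT, 27.2-fold on day 0 (4.61 to 1100; adjusted p = 0.0118), a call lost without iBAT516 or iBAT518 (up to 0.0695). The same comparison passed on day 2 (0.0111), a call lost in edgeR with the replicate block (0.13) and with the block and the score (0.0848). It passed on day 4 (0.0311), a call lost without eWAT548 or any of the 3 iBAT libraries (up to 0.185). In limma voom this comparison passed on no day, with an adjusted p of 0.0561, 0.102 and 0.0986 on days 0, 2 and 4. Lymphocyte markers were also highest in iWAT, at 1050 to 3900 CPM in iWAT against 0 to 32.4 in iBAT and 13.6 to 51.3 in eWAT, with 12 of 12 tested genes higher in iWAT than in either depot on day 0. Within iWAT, the lymphocyte sum was 3080 CPM in iWAT532, highest for Hoxc10, and 3040 CPM in iWAT517, lowest for Hoxc10. The lowest sum, 1050 CPM, was in iWAT553 with 93.8 CPM of Hoxc10. The highest sum, 3900 CPM, was in iWAT516 with 77.9 CPM of Hoxc10. The part of lymphocytes in the Hoxc10 level was not tested. Hoxc10 and Hoxc5 share 166 exonic bases on the same strand.

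Hoxc9 was low, and was counted in both white depots. Its day 0 CPM was 3.09, 3.41, 2.37 and 0.591 in iWAT and 0.200, 0.639 and 3.18 in eWAT, with no count in any of the 10 iBAT libraries. It was at least 7.41-fold higher in iWAT than in iBAT on day 0 (edgeR adjusted p = 0.0132), at least 4.33-fold on day 2 (0.0177) and at least 3.37-fold on day 4 (0.0094). Hoxc9 passed the filter through iWAT alone, so these p-values come from a gene that had to be higher there to be tested. The day 0 call was lost without iBAT517 or iBAT518 (up to 0.0538). Hoxc9 in eWAT was past the test against iBAT on days 2 and 4 (0.0296 and 0.0272), but lost the call without eWAT532, eWAT538 or any of the 4 iBAT libraries on day 2 (up to 0.0683), and without eWAT548 or any of the 3 iBAT libraries on day 4 (up to 0.106). It did not pass between iWAT and eWAT on any day.

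Hoxc8 was lowest in iBAT. Hoxc8 on day 0 was 3.26, 5.76 and 8.60 CPM in iBAT, 27.3, 41.7, 29.1 and 6.20 in iWAT and 24.6, 34.3 and 172 in eWAT. Every eWAT library exceeded every iBAT library, with a log2 difference of -3.69 ± 0.99 (SE) for iBAT minus eWAT (edgeR adjusted p = 0.016). That call was lost without iBAT516, iBAT517 or eWAT518, with an adjusted p of up to 0.143. On day 2 the iBAT minus eWAT difference was -2.90 ± 0.85 (0.019; up to 0.117 without iBAT532, iBAT534 or eWAT538) and on day 4 -3.98 ± 1.05 (0.00975; 0.056 without iBAT548, where Hoxc8 has no value). Against iWAT, Hoxc8 in iBAT passed the test only on day 4, at -4.24 ± 1.02 (adjusted p = 0.00486), and kept the call when any library of either group was left out. On day 0 the same difference of -2.13 had an adjusted p of 0.104. Between iWAT and eWAT it passed on no day. Hoxc8 levels went with the library score. In eWAT the 3 libraries with a score above 0.5 held 83.2 to 184 CPM and the other 6 held 20.2 to 77.4, and in iWAT 6 libraries held 27.3 to 128 and the other 6 held 6.20 to 29.8. Krt17, a keratin, was at 3010 to 4700 CPM in those 3 eWAT libraries and at 55.4 to 1270 in the other 6. The part of the score in these levels was not tested beyond the fit that includes it.

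**Figure D3:**
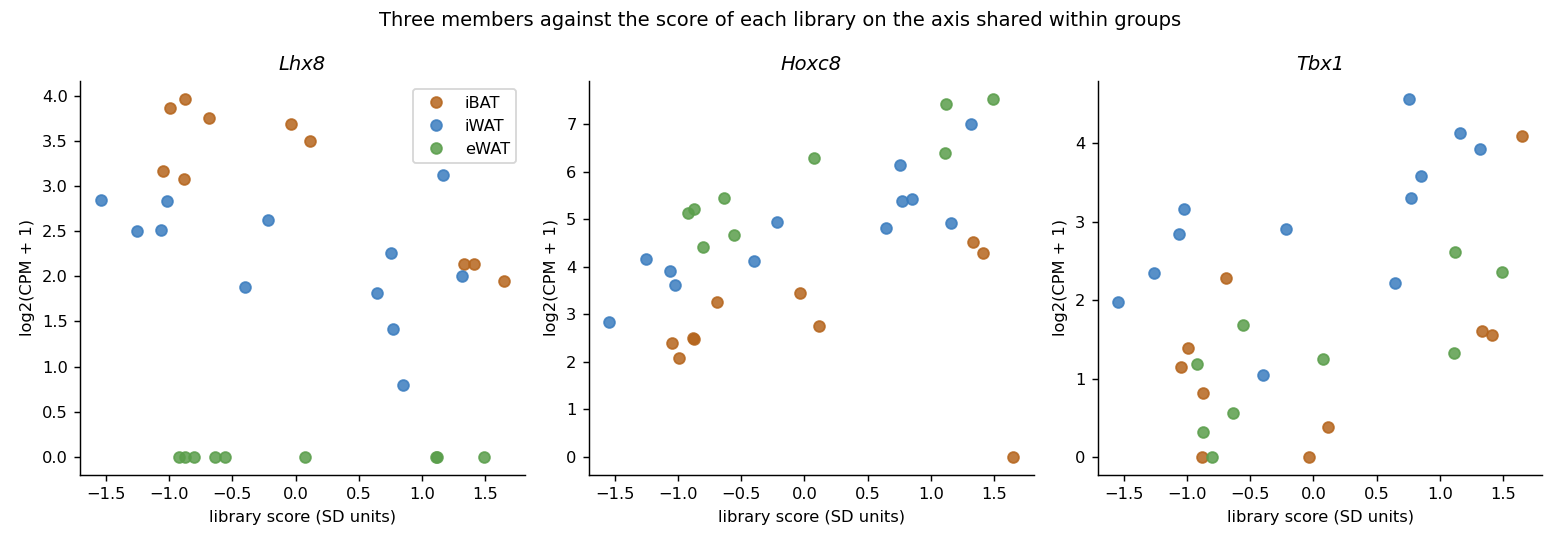
The panels plot log2(CPM + 1) of Lhx8, Hoxc8 and Tbx1 against the score of each of 31 libraries, coloured by depot. Within iBAT, Lhx8 is lowest in the 3 libraries with the highest scores, among them iBAT539 and iBAT548, the pair with low counts missing. Within eWAT, Hoxc8 is highest in the 3 libraries with the highest scores.

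Compared per length, as CPM per kilobase of transcript on day 0, the leading member was Tbx15 in iBAT (21.9 ± 13.4, SD, n = 3), followed by Zic1 (6.94 ± 1.35) and Lhx8 (5.81 ± 0.778). Hoxc8 (3.14 ± 1.43) and Ebf2 (2.99 ± 0.579) came next. Zic1 and Lhx8 lay within their spread of each other, as did Hoxc8 and Ebf2. In iWAT the order was Hoxc10 (39.3 ± 21.4, n = 4), Hoxc8 (13.9 ± 7.87), Tbx15 (4.96 ± 1.84), Tbx1 (3.40 ± 2.58) and Lhx8 (2.07 ± 1.55), and each gene overlapped the next in mean ± SD, so that this order is one of means only. In eWAT Hoxc8 stood at 41.2 ± 44.2 (n = 3), and Cited1 at 214 ± 367, a mean set by eWAT516. As a row can miss reads of its gene, levels of different genes are compared here only as far as their rows go.

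Counted by comparison, 5 of 10 members passed between iBAT and iWAT on day 0, where 17.9% of the 11041 tested genes passed. These were Tbx15 and Zic1, higher in iBAT, and Hoxc9, Hoxc10 and Tmem26, lower. Between iBAT and eWAT 6 of 10 passed (10.3% of genes), Tbx15, Zic1 and Lhx8 higher in iBAT and Cited1, Hoxc10 and Hoxc8 lower. Between iWAT and eWAT 4 of the 9 members with counts there passed (7.82%), Tbx15, Hoxc10 and Lhx8 higher in iWAT and Cited1 lower. On day 2 the 3 pairs had 3, 7 and 4 calls (15.6%, 17.8% and 10.2% of genes), and on day 4 they had 4, 6 and 4 (17.6%, 18.1% and 9.94%). The comparisons share libraries, the members were chosen as depot markers, and Zic1, Tmem26, Cited1 and Hoxc9 were tested through 1 high depot each, so these counts describe the genes and are no test of them. The counts rested on single libraries in part. They were 2 without iBAT518 and 3 without iBAT517 in place of 5, and 3 without iBAT516 in place of 6.

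**Figure D4:**
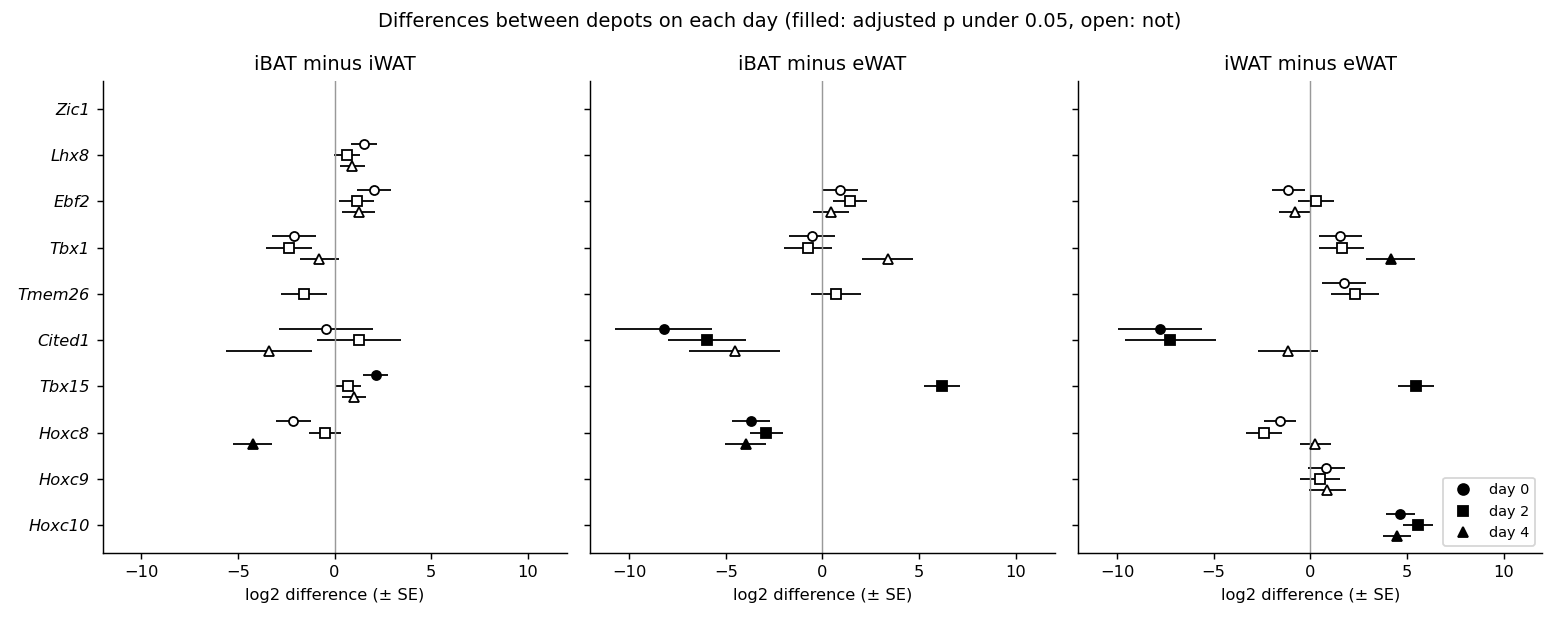
Log2 differences between depots (± SE, horizontal axis) are drawn for each gene on days 0, 2 and 4, filled where the adjusted p was under 0.05. Pairs with 3 or fewer counts in a group have no point, which leaves out, among others, all of Zic1 and the Hoxc9 and Hoxc10 comparisons with iBAT, and Hoxc10 is filled on all 3 days between iWAT and eWAT.

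The other HOX genes act at various levels of the body axis. Of 36 listed, 32 had a row and 20 were tested. Between iBAT and iWAT on day 0, 5 were higher in iBAT (Hoxa2, Hoxa3, Hoxa4, Hoxa5 and Hoxc5) and none lower, where 17.9% of all genes passed in either direction. The median log2 difference of the 20 was -0.20, close to the -0.18 over all genes. Hoxa4 was 47.0 CPM in iBAT and 8.15 in iWAT (2.52 ± 0.43 SE on the log2 scale, edgeR adjusted p = 0.000143), and Hoxa5 was 42.7 and 9.36 (2.17 ± 0.45, adjusted p = 0.00121). Between iBAT and eWAT, Hoxa4 was higher in iBAT and Hoxb6, Hoxb7, Hoxb8 and Hoxd10 were lower, with 10.3% of all genes passing. Between iWAT and eWAT 6 were lower in iWAT (Hoxa5, Hoxa11, Hoxb2, Hoxb6, Hoxb7 and Hoxd10), with 7.82% of all genes passing. By number in the cluster, with the members included, none of the 6 tested genes numbered 9 to 13 was higher in iBAT than in another depot, and 2 were lower than in iWAT (Hoxc9 and Hoxc10) and 2 lower than in eWAT (Hoxc10 and Hoxd10). Hoxb2, Hoxb6, Hoxb7 and Hoxb8 were highest in the 3 eWAT libraries with high epididymis markers, where Hoxb7 was 112, 43.4 and 110 CPM in eWAT516, eWAT532 and eWAT551 against 6.83 to 26.8 in the other 6. Hoxa11 was 45.2 and 22.2 CPM in eWAT516 and eWAT532 and 0 to 1.71 in the other 7. Hoxd10 was 25.6 and 18.4 CPM in the same pair, 1.22 in eWAT551 and 0.852 to 2.94 in the other 6. The part of the epididymis-high libraries in these differences was not tested.

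**Figure D5:**
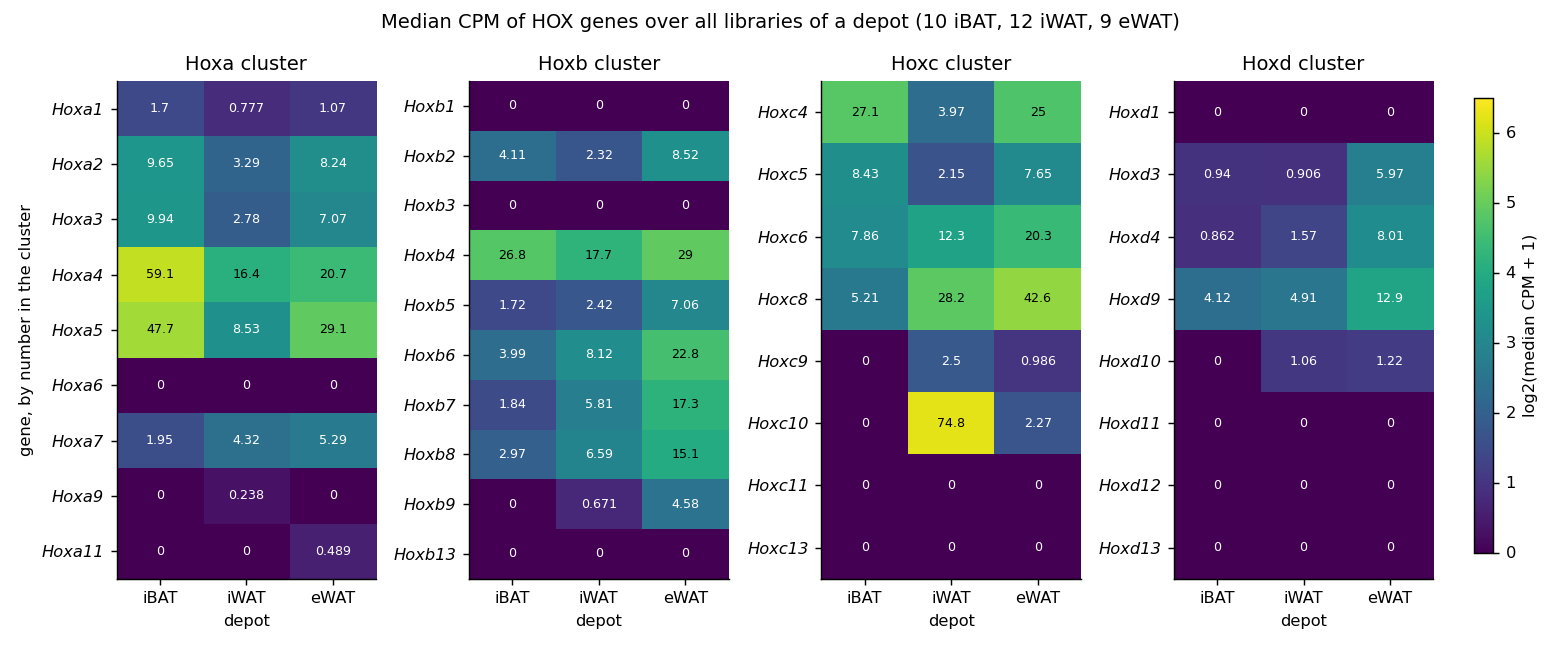
Each cell gives the median CPM of a HOX gene over the libraries of a depot (10 iBAT, 12 iWAT, 9 eWAT), coloured as log2(median CPM + 1), with genes of each cluster in order of number. Hoxa4 and Hoxa5 are highest in iBAT and Hoxc10 in iWAT, and Hoxc9 and Hoxc10 are at 0 in iBAT.

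Genes related to the members by family or use were taken from lists and compared on day 0. Over all tested genes, 17.9% passed between iBAT and iWAT that day and 10.3% between iBAT and eWAT, in either direction. The lists are short, and a count near these shares is not read as a result. Of 4 other T-box genes tested, Tbx5, a factor of the forelimb and heart, was higher in iBAT than in iWAT on day 0 (5.99 and 0.945 CPM, adjusted p = 0.0418) and than in eWAT (0.00982). Of 5 tested HOX cofactors, Pbx4 and Meis3 were lower in iBAT than in iWAT on day 0. Of 3 tested other ZIC, LHX, EBF and CITED genes none passed on day 0. Cited2 and Cited4 were lower in iBAT than in eWAT on days 2 and 4, where 17.8% and 18.1% of all genes passed. Cited4 was lower in iWAT than in eWAT on day 2 (10.2% of all genes). Of 10 other brown fat markers, 6 exceeded their iWAT level in iBAT, Cidea, Ucp1, Cox7a1, Kcnk3, Hspb7 and Oplah, and Epsti1 was lower, with a median log2 difference of 1.73 against -0.18 over all genes. Skeletal muscle markers summed to 22100 to 67500 CPM in iBAT and to 44.4 to 3260 in iWAT on day 0. Their part in these brown marker differences was not tested. Ucp1 stood at 7500 CPM in iBAT and 212 in iWAT (adjusted p = 0.000994). Of 5 tested other beige markers, P2rx5 was higher in iBAT than in iWAT (178 and 16.0 CPM, adjusted p = 0.00716). Of 8 white and visceral fat markers, 6 were lower in iBAT than in eWAT, Tcf21, Wt1, Agt, Lep, Retn and Slc7a10, with a median of -3.84. Mesothelium markers, cells that cover visceral fat and express Wt1, summed to 122 to 1040 CPM in eWAT and to 0 to 5.4 in iBAT, and their part was not tested.

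The cold moved none of the members past the test. Over the 3 day comparisons in each depot, 57 tests were made on the 5, 8 and 6 members past the filter in iBAT, iWAT and eWAT, and edgeR called 0 of them. At an unadjusted p under 0.05 there were 2, Tbx15 in iBAT from day 0 to day 2 (-1.39 ± 0.56 on the log2 scale, adjusted p = 0.349) and Hoxc8 in iBAT from day 2 to day 4 (-2.30 ± 0.99, adjusted p = 0.986). DESeq2 called 0 with 4 at an unadjusted p under 0.05, and limma voom 0 with 2. Over all genes edgeR passed 0.157% of 8270 in iBAT from day 0 to day 2 and 0% in the other 8 comparisons. DESeq2 called more, 306 and 81 of 8270 iBAT genes on days 2 and 4 against day 0 and 111 and 41 of 9574 iWAT genes, with 0 to 4 genes in the other 5 comparisons. Zic1 in iBAT averaged 19.5 ± 3.79 CPM (SD, n = 3) on day 0, 33.3 ± 12.2 (n = 4) on day 2 and 20.8 ± 8.05 (n = 3) on day 4, with differences of 0.85 ± 0.43 and 0.16 ± 0.46 (SE) from day 0. The beige markers in iWAT did not pass either. Tbx1 differed from day 0 by -0.46 ± 0.80 on day 2 and 0.30 ± 0.70 on day 4, and Tmem26 by 0.21 ± 0.74 and -0.62 ± 0.68, on the log2 scale. Cited1 was below the filter in iWAT. The median SE over the 57 tests was 0.70, so a change had to be well above that size to pass. Ucp1, the gene of uncoupling itself, was 45.8 to 499 CPM on day 0, 3440 to 8540 on day 2 and 504 to 5850 on day 4 in iWAT, with no overlap between day 0 and the cold days. Its differences from day 0, 4.82 ± 0.94 and 3.95 ± 0.87, had adjusted p-values of 0.247 and 0.46 in edgeR.

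No difference between depots in their cold change passed the test for any member. Of 60 tests of a difference between 2 depots in their change from day 0, edgeR called 0, with 4 at an unadjusted p under 0.05, against 0% of all genes. These were Tmem26 for iBAT against iWAT and against eWAT on day 2, and Tbx1 for iBAT against eWAT and Cited1 for iWAT against eWAT on day 4. Where a depot had no count on either day, its change could not be measured and the test could not pass. This held for Zic1 in all 6 comparisons. It also held for Hoxc9, Lhx8 and Tmem26 in those with such a depot, so the 0 calls say nothing there. DESeq2 called 0 with 1 at an unadjusted p under 0.05, and limma voom called 0 with 0. Over all 11041 genes DESeq2 called 11 to 92 in each of the 6 comparisons, and limma voom 0 to 2.

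The genes whose group means were most like each member over the 9 groups, by root mean square difference in log2 CPM after centring, were taken from 11031 candidates. For Zic1 they were 2310002L09Rik (0.33), Yipf7 (0.42) and Kcna7 (0.45). For Lhx8 they were AI606473 (0.25), H2-Q10 (0.38) and Snai3 (0.45), and for Tbx15 AI606473 (0.87), Pdk4 (0.88) and Scn4a (0.90). Hoxc10 was closest to Acap1 (0.46), Marco (0.51) and Itgb7 (0.51), and Hoxc8 to Olfml1 (0.43), Alcam (0.46) and Carmil1 (0.49). Hoxc9 was closest to Pdxp (0.22), Rasa3 (0.23) and Prkcd (0.28), Tbx1 to Fam107b (0.35), Carns1 (0.39) and Ier5 (0.41), and Tmem26 to Glipr1 (0.22), Pde1b (0.25) and Nkpd1 (0.26). Ebf2 was closest to Psap (0.15), Pard3 (0.21) and Tmem109 (0.22), and Cited1 to Anxa13 (0.32), Mapk15 (0.38) and Adamts5 (0.41). The 9 means share libraries between genes, so these values describe likeness only.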

How the data were processed

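Libraries were made by Illumina protocols from 1 µg of Trizol-extracted RNA of frozen fat, per the labels' protocols. The authors deposited raw counts per RefSeq transcript accession, 1 table per depot. Per the submitters' processing notes, BWA and cutadapt (versions not given) and the build mm10 were used. The counting step, strand use and annotation release are not given in the sources used here. No cell of the tables is 0, and empty cells were taken as 0. Accessions were matched to symbols in RefSeq (17030) or GENCODE (105), and 199 had none.

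Counts were tested in edgeR 4.0.16 (R 4.3.3, TMM, quasi-likelihood with robust fits, filterByExpr with a minimum count of 10 and total of 15, Benjamini-Hochberg at 0.05). Depots and their cold changes were compared in 1 fit of all 31 libraries (11041 genes), and days within each depot in its own fit (8270, 9574 and 10043 genes in iBAT, iWAT and eWAT). The library score is a library's position on the first axis of within-group variation in the other depots. It is centred on the mean of the library's own depot over all days, so it can carry differences between days. Alternatives were DESeq2 1.42.0, limma 3.58.1, other scalings, no filter, left-out libraries, the score as a covariate, a replicate block and fits of the compared groups alone. Ratios against groups with 1 to 3 counts have exact binomial 95% intervals that cover counting error only. All 10 members were named, and for each the 3 genes most like it; from related lists, up to 3 called genes and the most abundant uncalled gene. Other genes of these lists, and Krt17, were named after their values were seen. The members and lists were chosen with earlier results of these data known. The comparison of HOX cofactors with eWAT is not reported here.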

Additional observations from a re-analysis of the deposited data

Results flagged for a closer look

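Of 26 groups of 4 or 5 libraries checked for a library far from the rest, 3 had one. The limit gives about 1 in 20 by chance for normal values, a rate that need not hold for these low counts. A group with counts in 1 library alone is always flagged, as was the case for Tmem26. Tmem26 was 4.08 CPM in iBAT539 and 0 in the other 3 iBAT libraries of day 2. Cited1 was 33.9 CPM in iWAT555, and the next highest of the 5 iWAT libraries of day 4 was 2.09. Hoxc9 was 12.1 CPM in iWAT553, and the next of the same 5 was 3.72.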

How the results depend on the processing

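No called difference of a member reversed direction under any alternative run. No call gained there was opposite in sign to the main fit. Changes of sign without a call were not counted. Under alternatives other than leaving out a library, 2040 values of members stayed on their side of the threshold, 55 lost a call and 24 gained one. The count of members called between iBAT and iWAT on day 0 was 5, and 1 with the replicate block and library score together. Between iBAT and eWAT it was 6, and 3 in limma voom. Between iWAT and eWAT it was 4, and 2 of 6 tested with only the compared groups in the fit. On day 2 the 3 pairs had 14 calls, against 8 with the replicate block and 9 with the block and the score. On day 4 they had 14, and 8 of 18 tested with only the compared groups. Leaving out 1 library at a time gave 2 to 5, 3 to 6 and 3 to 4 calls on day 0, 10 to 14 on day 2 and 11 to 14 on day 4. The 0 calls between days, and the 0 between depots in their cold change, held under every alternative run, and in each of 31 fits without 1 library. Label numbers recur across depots, and the labels do not say whether a number is a mouse. Of 23 same-numbered pairs, 6 had deviations with a correlation over 0.1 (range -0.439 to 0.364), and 4 correlated best with their own number. In groups this small, that cannot settle whether same-numbered libraries share a mouse. The main fit uses no pairing, and the replicate block is given as an alternative. In the block fits Zic1, at 0 in 2 depots, could not be fitted in a usable way in 3 comparisons and is not read there. Scaling by library size alone moved the median of all genes by up to 0.51 on the log2 scale, and RLE size factors by up to 0.18. Counts were not summed over the rows of a symbol in any fit, and each member has 1 row. Leaving out the 4 libraries high in epididymis markers was chosen after seeing the data. Tmem26 and Hoxc9 had the lowest total counts of the members, 130 and 172, and so the least depth. The cause of these changes was not tested.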
